A study of Mus musculus with 28 samples.

Results

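Hox genes were followed across 14 populations of cells that flow sorting had taken from the back skin of mice at postnatal day 5. Each population had 2 libraries, 28 in all. Members were taken by name: every gene called Hox with a cluster letter from a to d and a paralogue number. The table held 39 of them among 23015 rows. Hox genes encode homeodomain transcription factors that lie in clusters, and in vertebrate embryos the order of the genes along a cluster matches the order in which they are used from head to tail. Fibroblasts of different body sites are known to keep such a pattern after birth, and genes with the same number in different clusters, called paralogues, arose by duplication of 1 ancestral cluster. Hoxc13 stands apart in skin, since it is known for its role in hair shaft and nail formation and not only for position.

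Skin carrying K14-H2BGFP, in which the keratin 14 promoter drives a nuclear green protein in keratinocytes, together with Lef1-RFP gave 8 populations. These were the melanocytes Mc (RFP-positive, CD117-positive), the dermal papilla cells DP (RFP-positive with high integrin alpha 9) and the dermal fibroblasts DF (RFP-positive, negative for CD117 and integrin alpha 9). The epithelial ones were TAC (GFP-low and RFP-positive, described as matrix progenitors expressing Shh), the matrix progenitors Mx (GFP-low), the outer root sheath ORS (GFP-high) and the epidermis Epi (GFP-positive, from the epidermal preparation). Neg was the mixture of cells left negative. Papilla cells of Sox2-GFP, Lef1-RFP skin were split into G/AA-DP (GFP-positive, guard and awl/auchene follicles) and ZZ-DP (GFP-negative, zigzag follicles). Papilla cells of Crabp1-GFP, Lef1-RFP skin were split into G-DP (GFP-negative, guard) and AA/ZZ-DP (GFP-positive). Cells of K14-RFP, Sox9-GFP skin with high RFP and high integrin alpha 6 gave HF-SC (GFP-positive, bulge stem cell precursors) and HF-ORS (GFP-negative, the rest of the sheath). The strain background mixed FVB/N with C57BI/6J and with CD1. Whether the replicates were separate animals or pools is not stated, so p-values measure the spread between the 2 libraries of a population, which may be technical. In such bulk libraries, fewer cells of a type and less RNA per cell cannot be told apart.

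Levels are the authors' FPKM, a count of fragments scaled by transcript length and by library, so levels of different genes can be set side by side. The depth of the libraries is unknown, and a 0 may be a failed estimate, so such genes are described as listed at 0. Between 10951 and 12497 rows reached 1 FPKM in a library. The 6 keratinocyte markers summed to 41.3 to 516 FPKM in the dermal libraries and 1126 to 24862 in the epithelial ones. The 6 fibroblast markers summed to 717 to 5660 FPKM in the dermal libraries and 6.42 to 507 in the epithelial ones. Of the sums in Mx (492 and 420 FPKM), 1 marker, Dcn, gave 482 and 407 FPKM. In TAC (507 and 453 FPKM) it gave 307 and 294 FPKM. In HF-SC (260 and 341 FPKM) Dcn gave 39.4 and 47.1 FPKM, Col1a1 75.8 and 81.0 and Col3a1 75.8 and 95.7. In HF-ORS (184 and 293 FPKM) Dcn gave 30.8 and 82.4 FPKM. The part of fibroblast RNA in the Hox values of these sorts was not tested. Melanocyte markers were present in DF (1296 and 1240 FPKM summed over 6 markers), G-DP (992 and 869) and ZZ-DP replicate 2 (689), against 15373 and 12120 in Mc. Sox2, the gene behind 1 of the gates, was listed at 0 in G/AA-DP replicate 1 and stood at 4.81 FPKM in replicate 2, against 4.87 and 0.0891 FPKM in ZZ-DP, so the libraries labelled replicate 1 of these 2 populations go against their gate.

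The coding sequence of the homeobox, which encodes the DNA-binding domain, is shown for the HoxC members on which the results turn. Hoxc6, Hoxc8 and Hoxc10 had the highest dermal levels, and Hoxc13 had the highest epithelial level. Each line gives 180 bases, read from the longest coding transcript of the GENCODE M21 annotation, with capitals on the 18 bases that encode the most conserved stretch of the recognition helix.
Hoxc6: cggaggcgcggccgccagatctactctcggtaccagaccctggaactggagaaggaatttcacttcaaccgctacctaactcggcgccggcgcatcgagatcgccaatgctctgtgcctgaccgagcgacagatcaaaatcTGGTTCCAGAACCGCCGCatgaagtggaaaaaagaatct
Hoxc8: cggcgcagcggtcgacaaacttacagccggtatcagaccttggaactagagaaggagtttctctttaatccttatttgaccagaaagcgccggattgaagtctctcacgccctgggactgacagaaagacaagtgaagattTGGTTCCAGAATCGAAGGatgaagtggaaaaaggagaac
Hoxc10: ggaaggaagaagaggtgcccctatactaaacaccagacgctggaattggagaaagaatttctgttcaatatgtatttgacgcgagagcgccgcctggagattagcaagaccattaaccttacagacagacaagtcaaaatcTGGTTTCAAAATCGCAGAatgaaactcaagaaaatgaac
Hoxc13: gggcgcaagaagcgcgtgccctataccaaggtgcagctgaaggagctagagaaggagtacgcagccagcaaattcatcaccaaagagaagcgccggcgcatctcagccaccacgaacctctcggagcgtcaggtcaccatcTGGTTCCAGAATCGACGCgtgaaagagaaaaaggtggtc
Over all 39 members, the 42 pairs of one paralogue group shared 67.2% to 93.9% of these bases (median 80.6%), and the 699 other pairs 46.1% to 88.9% (median 60.6%). Hoxc13 was closest to Hoxa13, at 77.2%. How the deposited values treat fragments that match more than 1 paralogue is not given in the sources used here.

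The members lie in 4 clusters, with positions from RefSeq on GRCm38.p6 (mm10). HoxA holds 11 genes on chromosome 6 between 52155367 and 52260880, all on the minus strand. HoxB holds 10 genes on chromosome 11 (96194316 to 96368254), HoxC 9 on chromosome 15 (102921131 to 103036856) and HoxD 9 on chromosome 2 (74668225 to 74765142), all on the plus strand. Counting was not stated to use strand, and some exons are shared. Hoxd3 shares 62.3% of its exon bases and Hoxd4 52.3% with genes on the same strand, which include each other, and Hoxb3 shares 52.9% with an antisense gene. The deposited table also gave Hoxa3 to Hoxa6 a single locus, and likewise Hoxd3 and Hoxd4, so the division of fragments within these groups is uncertain.

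Of the 39 members, 34 reached 1 FPKM in at least 1 library and 24 averaged at least 5 FPKM in at least 1 population. Hoxa13, Hoxb13 and Hoxd12 were listed at 0 in all 28 libraries. For the tests a gene had to reach 1 FPKM in at least 2 libraries, which 29 members did. The 10 others were Hoxa11, Hoxa13, Hoxb1, Hoxb13, Hoxc11, Hoxd1, Hoxd10, Hoxd11, Hoxd12 and Hoxd13. Just outside this limit, Hoxa11 had a second highest value of 0.946 FPKM, and just inside it Hoxb9 had 2.31 FPKM. The genes left out include most of those at the tail end of the clusters, which are known for limb and genital development. Their highest values were 1.82 FPKM for Hoxa11 and 1.53 FPKM for Hoxc11 in DF replicate 1, 1.28 FPKM for Hoxd11 in DF replicate 2, 2.1 FPKM for Hoxb1 in TAC replicate 1 and 2.00 FPKM for Hoxd10 in Neg replicate 2.

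**Figure D1:**
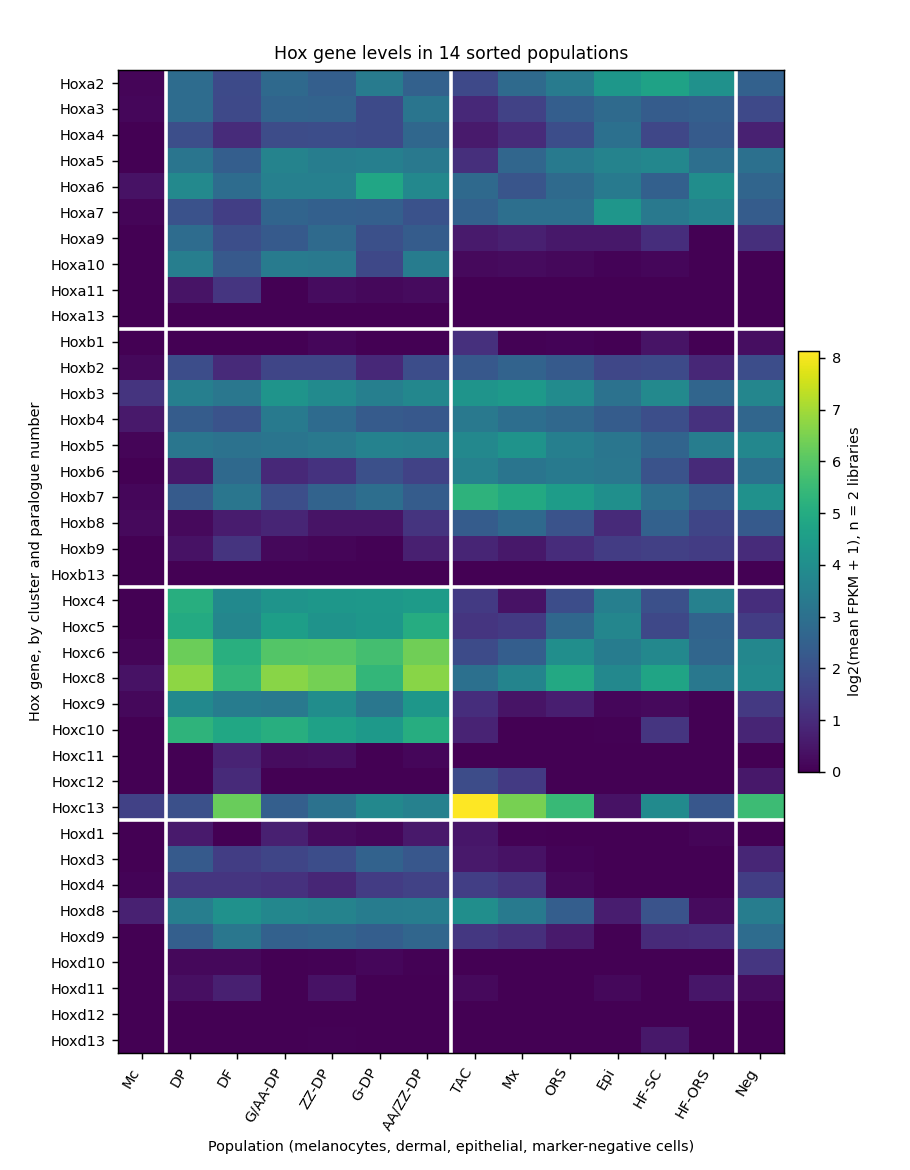
Mean level of each Hox gene reported here (vertical axis, by cluster and paralogue number) in each population (horizontal axis), as log2(mean FPKM + 1) over 2 libraries; white lines separate clusters and compartments. HoxC genes from Hoxc4 to Hoxc10 are brightest in the dermal columns, Hoxc13 reaches its highest mean in TAC (279 FPKM), and the Mc column is dark.

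Counting a member as detected in a population where both libraries reached 1 FPKM, 22 to 24 members were detected in each dermal population and 16 to 20 in each epithelial one. In every dermal population 19 members were detected, and in every epithelial one 7. The highest HoxA number detected was 10 in all 6 dermal populations and 7 in all 6 epithelial ones. HoxC genes made up 58.8% to 73.7% of the summed Hox level in dermal populations, against 26.4% in Epi, 27.0% in HF-ORS, 35.0% in HF-SC, 45.3% in Mx, 45.5% in ORS and 69.0% in TAC. Without Hoxc13, genes numbered 9 and above made up 13.8% to 24.9% of the summed level in the dermal populations and 1.45% to 5.06% in the epithelial ones. HoxA had the largest share in HF-ORS (50.5%), Epi (45.1%) and HF-SC (38.2%).

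**Figure D2:**
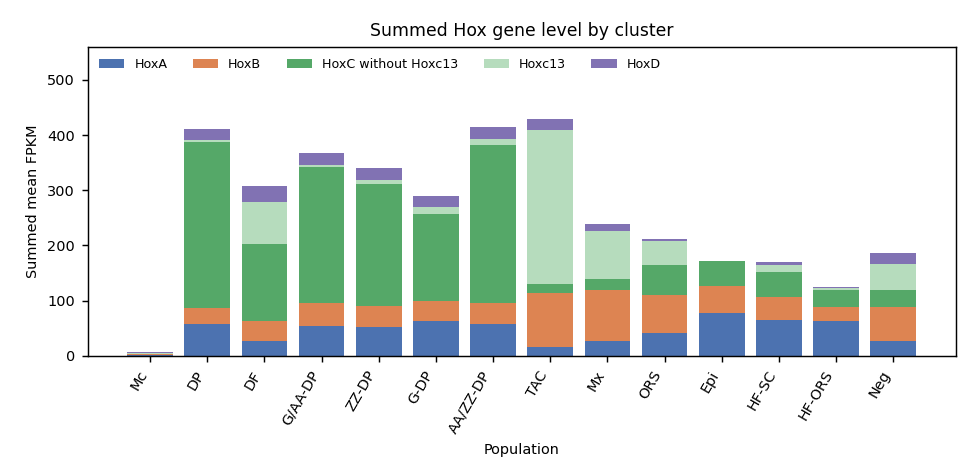
Summed mean FPKM of the Hox genes (vertical axis) in each population (horizontal axis), stacked by cluster with Hoxc13 drawn apart from the other HoxC genes. Dermal sums lie between 290 and 415 FPKM and are mostly HoxC without Hoxc13, while most of the TAC sum of 429 FPKM is Hoxc13 and the Mc sum is 6.10 FPKM.

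Dermal populations were set against epithelial populations to ask which members separate the compartments, with each of the 6 populations on either side weighted equally. Of the 29 members tested, 11 rose in the dermal populations, 5 fell and 13 did not pass the test, which asked for a log2 change of 1 or more either way with an adjusted p below 0.05. Over all 15052 genes tested, 15.1% were called higher and 12.9% lower (28.0% together). The median log2 change was 0.33 over the members and -0.01 over all genes. Members rose by cluster and by number: 6 of 8 in HoxC, 3 of 4 in HoxD and 2 of 9 in HoxA rose, and none of 8 in HoxB, where 3 fell. Changes are on the log2(FPKM + 1) scale, which understates those of low genes, and p-values are from limma. These p-values and standard errors hold the spread between libraries of a population, not that among the 6 populations of a compartment. All dermal populations but DF are papilla sorts. With a pseudocount of 5, which weighs low genes less, 7 members were higher and 1 lower. In that setting 2146 of the 15052 genes tested were called. All 3 HoxD calls were then lost, Hoxd3, Hoxd8 and Hoxd9 (log2 changes 0.66, 0.83 and 0.83), and so was that of Hoxa9 (0.74). Calls lost on the lower side included Hoxa7, Hoxb6 and Hoxb8 (-0.67, -0.67 and -0.58).

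**Figure D3:**
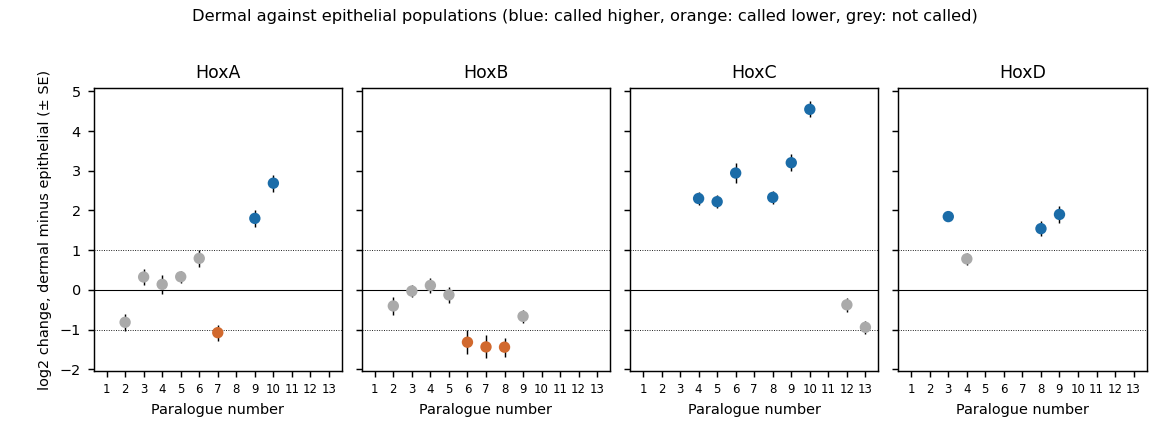
Log2 change of each tested member reported here between dermal and epithelial populations (vertical axis, dermal minus epithelial, bars are standard errors) against its paralogue number (horizontal axis), with 1 panel per cluster; dotted lines mark a log2 change of 1 either way. The points of HoxC from number 4 to number 10 all lie above the upper line, and those of HoxB never do.

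Hoxc10, which patterns the lumbar region and its motor neurons in the embryo, showed the largest change of all members. It ranged from 12.7 to 41.3 FPKM in the 12 dermal libraries, with a median of 29.8, and in the 12 epithelial libraries from 0 to 2.79 with a median of 0, being listed at 0 in 8 of them. No dermal library came near an epithelial one. Its log2 change was 4.55 ± 0.20 (SE; adjusted p = 1.3e-13). The highest epithelial value was in HF-SC replicate 1, and the 2 TAC libraries had 0.603 and 0.920 FPKM. TAC also had papilla markers, which summed to 47 and 55 FPKM over 7 genes, against 4.44 and 1.81 FPKM in Mx and 1412 to 3541 FPKM in the papilla sorts. Their part in the TAC value was not tested.

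Hoxc8 and Hoxc6, genes of the thoracic region, were the highest dermal members. Hoxc8 ranged from 31.8 to 144 FPKM in dermal libraries with a median of 82.5, and from 4.05 to 30.5 FPKM in epithelial libraries with a median of 13.5. The lowest dermal library, DF replicate 1, stood just above the highest epithelial one, ORS replicate 2, and the log2 change was 2.33 ± 0.16 (adjusted p = 1.42e-10). Hoxc6 ranged from 33.9 to 90.8 FPKM in dermal libraries (median 67.4) and from 1.04 to 18.2 FPKM in epithelial libraries (median 7.82), again without overlap, with a log2 change of 2.94 ± 0.24 (adjusted p = 1.47e-09). Both reached 1 FPKM in all 12 epithelial libraries, and Hoxc10 in 1 of them.

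Hoxc9, which sets thoracic motor neuron identity, had 4.45 to 23.0 FPKM in dermal libraries (median 12) and 0 to 1.75 FPKM in epithelial libraries (median 0.242), a log2 change of 3.20 ± 0.21 (adjusted p = 6.72e-11). Hoxc4 and Hoxc5, the 2 HoxC genes nearest the head end, had log2 changes of 2.30 ± 0.17 and 2.22 ± 0.16 (adjusted p = 2.94e-10 and 2.48e-10). These 2 overlapped between compartments. Hoxc4 ranged from 10.5 to 38.2 FPKM in dermal libraries (median 19.0) and from 0.0690 to 12.5 FPKM in epithelial libraries (median 2.75). Hoxc5 ranged from 9.60 to 40.6 FPKM in dermal libraries (median 18.6) and from 0.931 to 13.5 FPKM in epithelial libraries (median 3.21). The high epithelial values of both were in Epi, with HF-ORS also high for Hoxc4.

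In HoxA the genes numbered 9 and 10 rose. Hoxa10, known for its role in the lumbar spine and uterus, had 1.03 to 14.8 FPKM in dermal libraries (median 6.63), against 0 to 0.371 FPKM in epithelial libraries. It did not reach 1 FPKM in any epithelial library, and its log2 change was 2.69 ± 0.21 (adjusted p = 7.11e-10). Hoxa9, known also from blood progenitors, had 1.38 to 10.0 FPKM in dermal libraries (median 3.95) and 0 to 1.94 FPKM in epithelial libraries (median 0.370), with a log2 change of 1.80 ± 0.22 (adjusted p = 5.79e-07). The epithelial value that overlapped the dermal range was in HF-SC replicate 2.

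In HoxD, Hoxd3, Hoxd8 and Hoxd9 rose. Hoxd9 had 3.28 to 8.35 FPKM in dermal libraries (median 5.41) and 0 to 2.07 FPKM in epithelial libraries (median 0.692), without overlap and with a log2 change of 1.90 ± 0.21 (adjusted p = 1.71e-07). Hoxd3, which takes part in forming the first neck vertebrae, had 1.43 to 5.89 FPKM in dermal libraries and 0 to 0.559 FPKM in epithelial libraries, a log2 change of 1.85 ± 0.12 (adjusted p = 3.09e-11). Hoxd8 overlapped, because it was also high in the matrix. It had 6.18 to 20.5 FPKM in dermal libraries (median 11.2) and 0 to 15.4 FPKM in epithelial libraries (median 3.88), with 14.8 and 15.4 FPKM in TAC and 9.61 and 8.37 FPKM in Mx. Its log2 change was 1.54 ± 0.19 (adjusted p = 4.53e-07). Hoxd4, which shares exons with Hoxd3, did not reach the fold (log2 change 0.78 ± 0.14).

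Across the tested members, 7 had every dermal library above every epithelial library: Hoxa10, Hoxc6, Hoxc8, Hoxc9, Hoxc10, Hoxd3 and Hoxd9. Over all genes tested, 5.91% separated in that direction and 3.14% in the other, in which no member did. By number, 5 of the 6 tested members numbered 9 or 10 rose, the exception being Hoxb9 at -0.67 ± 0.16. No member numbered 11 was tested. Of 15 numbered 4 to 8, 5 rose and 4 fell. Both tested members numbered 10 rose, with Hoxd10 too low to be tested, and both numbered 7 fell. Hoxa10 and Hoxd3 reached 1 FPKM in all 12 dermal libraries and in no epithelial one, so they entered the tests through the dermal libraries.

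Among the members that fell in the dermal populations were Hoxa7, Hoxb6, Hoxb7 and Hoxb8. Hoxb7 had 0.405 to 10.9 FPKM in dermal libraries (median 5.06) and 2.77 to 60.5 FPKM in epithelial libraries (median 15.1), a log2 change of -1.44 ± 0.29 (adjusted p = 0.000228). The 60.5 FPKM was TAC replicate 1 alone, with 13.2 FPKM in replicate 2, and Mx had 30.1 and 29.2 FPKM. Hoxb8, whose loss in mice is known for excessive grooming, had 0 to 2.66 FPKM in dermal libraries (median 0.363) and 0.846 to 7.37 FPKM in epithelial libraries (median 3.20), a log2 change of -1.44 ± 0.24 (adjusted p = 2.14e-05). The ranges of both genes overlapped.

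Hoxb6 had 0.234 to 10.8 FPKM in dermal libraries (median 1.20) and 0.269 to 13.4 FPKM in epithelial libraries (median 5.60), and the log2 change was -1.32 ± 0.30 (adjusted p = 0.000687). Its high dermal value was DF replicate 1, a library that also had the most keratinocyte marker RNA of the dermal set (516 FPKM). With the papilla sorts averaged into 1 population, which gives DF more weight, Hoxb6 changed by -0.94 and no longer reached the fold. Hoxa7 had 1.74 to 6.98 FPKM in dermal libraries (median 3.21) and 4.47 to 20.9 FPKM in epithelial libraries (median 7.62), with a log2 change of -1.08 ± 0.20 (adjusted p = 9.36e-05). It dropped just under the fold without HF-SC replicate 1 or ZZ-DP replicate 2 (both -0.97), and without DF (-0.95).

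Hoxa2, a selector of branchial arch identity, was highest in HF-SC, HF-ORS and Epi. It averaged 24.4 ± 2.65 FPKM in HF-SC, 16.4 ± 4.88 in HF-ORS and 18.9 ± 7.49 in Epi, against 2.47 ± 2.83 in TAC (SD, n = 2 each). Dermal libraries ranged from 2.36 to 12.8 FPKM for Hoxa2, and its log2 change of -0.82 ± 0.21 did not reach the fold, but did with the papilla sorts averaged into 1 (-1.13).

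**Figure D4:**
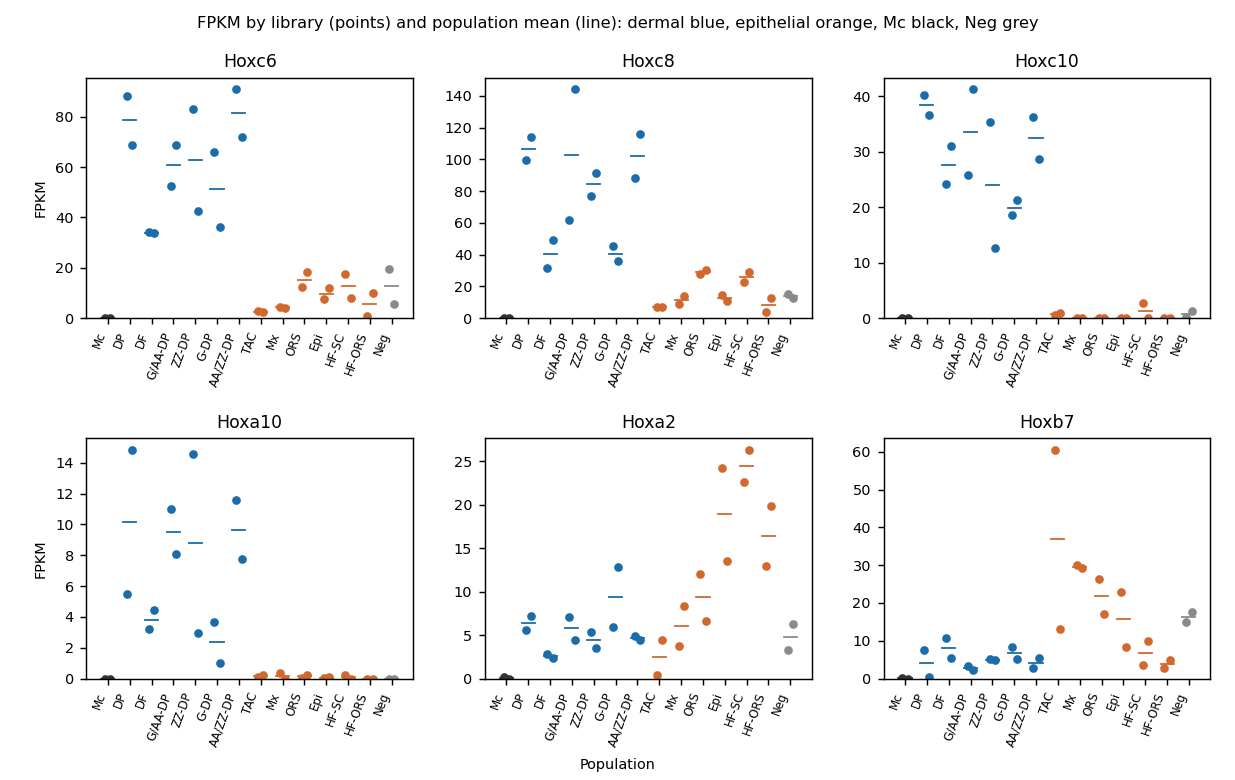
FPKM (vertical axis) of 6 Hox genes in each library (points) of each population (horizontal axis), with lines at the mean of 2 libraries. Hoxc6, Hoxc8, Hoxc10 and Hoxa10 are higher in every dermal library than in any epithelial one, while for Hoxa2 and Hoxb7 the ranges overlap and the highest values are epithelial (26.3 and 60.5 FPKM).

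The members that follow were not called between the compartments. Hoxb3 had 6.29 to 21.8 FPKM in dermal libraries and 4.69 to 20.6 FPKM in epithelial libraries, a log2 change of -0.03 ± 0.15. It was the only member of the 39 at 1 FPKM or more in all 28 libraries, Mc included. Hoxb5 (log2 change -0.13 ± 0.20), Hoxb4 (0.11 ± 0.19), Hoxa3 (0.32 ± 0.21), Hoxa4 (0.14 ± 0.25), Hoxa5 (0.33 ± 0.15) and Hoxb2 (-0.41 ± 0.23) did not pass the adjusted p. Hoxa6 (0.79 ± 0.22) and Hoxb9 passed it but not the fold, and Hoxc12 (-0.38 ± 0.18) passed neither. Hoxc12 was listed at 0 in 11 of 12 dermal libraries, the other being DF replicate 1 at 1.92 FPKM, and was highest in TAC (4.38 and 0.994 FPKM) and Mx (2.48 and 0.777).

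Since the populations came from 4 mouse lines, the comparison was also made within the K14-H2BGFP line, DP and DF against TAC, Mx, ORS and Epi. There 11 members were higher and 6 lower, and the share over all genes was not drawn up for this narrower comparison. The sixth was Hoxc13, at -1.11 ± 0.25 (adjusted p = 0.00123). Hoxc10 changed by 4.84 ± 0.31 and Hoxb7 by -2.09 ± 0.43 in that line. The other lines held only dermal or only epithelial populations.

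Hoxc13 followed another pattern. It had 295 and 262 FPKM in TAC, 87.6 and 88.5 FPKM in Mx, 38.0 and 48.5 FPKM in ORS and 0.141 and 0.476 FPKM in Epi. No 2 of these populations overlapped. In the other epithelial sort it had 15.8 and 11.6 FPKM in HF-SC, against 4.31 and 3.02 in HF-ORS. Among the dermal populations DF stood highest, at 119 and 35.1 FPKM, while the 10 papilla libraries ranged from 2.05 to 15.2 FPKM. Neg, the mixed population, had 51.7 and 41.3 FPKM.

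Between ORS and Epi, Hoxc13 rose by a log2 change of 5.08 ± 0.41 (adjusted p = 4.27e-08), and it was 1 of 2 members called higher there, where 5.35% of all genes were called higher and 4.48% lower (9.83% together). Between TAC and Mx its log2 change of 1.65 ± 0.41 missed the threshold (adjusted p = 0.0542), although both TAC libraries lay far above both Mx libraries. With a pseudocount of 5 or with a filter at 5 FPKM it passed. With a replicate block, 1 member was called higher between TAC and Mx. Between Mx and ORS Hoxc13 changed by 1.02 ± 0.41 (adjusted p = 0.253). Between HF-SC and HF-ORS it rose by 1.65 ± 0.41 (adjusted p = 0.0238), a call lost when any 1 of the 4 libraries was left out.

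The value of Hoxc13 in DF went with hair matrix genes. Shh, the signal of matrix progenitors, had 50.1 and 7.99 FPKM in the same 2 DF libraries, and Krt35, a hair cortex keratin, 140 and 24.3 FPKM. The 5 matrix markers summed to 285 and 102 FPKM and the 6 keratinocyte markers to 516 and 143 FPKM, so DF replicate 1 was the higher for each. The part of matrix cells in the DF level of Hoxc13 was not tested. Set against DF, DP had 3.90 and 2.05 FPKM of Hoxc13 and a log2 change of -4.09 ± 0.41 (adjusted p = 4.71e-06), which ranged from -4.95 to -3.22 with 1 of the 4 libraries left out. Over all dermal against all epithelial populations the Hoxc13 change was -0.94 ± 0.17 (adjusted p = 6.14e-05), under the fold. It was -1.45 without DF, -1.11 within the K14-H2BGFP line, and 0.08 ± 0.20 (adjusted p = 0.746) with the papilla sorts averaged into 1.

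**Figure D5:**
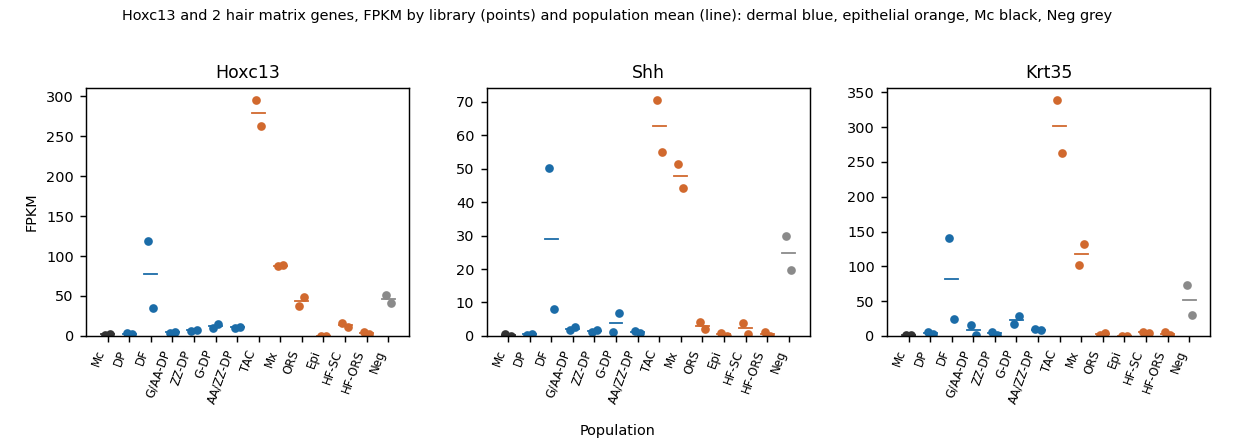
FPKM (vertical axis) of Hoxc13 and of the hair matrix genes Shh and Krt35 in each library (points) of each population (horizontal axis), with lines at the mean of 2 libraries. All 3 genes are highest in TAC and differ between the 2 DF libraries in the same direction, with Hoxc13 at 119 and 35.1 FPKM.

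Across the 14 population means of log2(FPKM + 1), the genes most like Hoxc13 among 11976 compared were Dlx3 (Pearson r = 0.964), Msx1as (0.951), Dsg4 (0.943), Stra6 (0.941) and Mapk12 (0.941). These points share their libraries. Dlx3 averaged 269 FPKM in TAC, 231 in Mx, 65.5 in ORS and 2.92 in Epi. Of the hair genes known to depend on Hoxc13, 5 were in the table under their own names. Between Mx and ORS, 3 of these rose, Krt35, Foxn1 and Foxq1 (log2 changes 4.86, 2.17 and 1.96), and 1.2% of all genes rose. Hoxc13 itself was not called there. Between TAC and Mx, where Hoxc13 was not called either, Foxq1 alone rose (2.96), and 1.04% of all genes rose. In the comparisons where Hoxc13 was called higher, none of the 5 was called, with a median log2 change of -0.35 between ORS and Epi and -0.53 between HF-SC and HF-ORS. Between DP and DF, where Hoxc13 fell, 3 of the 5 fell, and 4.25% of all genes fell. DF also held hair matrix markers, and their part in these changes was not tested.

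Within the epithelium, few other members were called. Hoxc4 had 0.556 and 0.0690 FPKM in Mx, against 3.62 and 1.89 FPKM in ORS, and fell by 1.5 ± 0.42 on the log2 scale (adjusted p = 0.0466). It was the single member called between these populations, where 1.2% of all genes were called higher and 2.64% lower (3.83% together), and the call was lost with any 1 of the 4 libraries left out. Without Mx replicate 1, 1 member was called higher. Members called lower numbered 2 with a pseudocount of 0.1 or a filter at 5 FPKM, and 0 with a pseudocount of 5, no filter or quantile normalization. Hoxc5 (1.08 and 2.09 FPKM in Mx, 5.73 and 5.53 in ORS), Hoxc6 (4.50 and 4.25 in Mx, 12.4 and 18.2 in ORS) and Hoxc8 (9.25 and 14.0 in Mx, 27.7 and 30.5 in ORS) also had both Mx libraries below both ORS libraries. Their log2 changes of -1.39, -1.58 and -1.28 did not pass the test (adjusted p = 0.0552, 0.191 and 0.091).

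Hoxc4 was also lower in ORS than in Epi, with 3.62 and 1.89 FPKM in ORS and 8.60 and 11.9 FPKM in Epi (log2 change -1.61 ± 0.42, adjusted p = 0.0133). Hoxd8 rose in ORS, with 6.11 and 2.57 FPKM, against 0.615 and 0.498 FPKM in Epi (1.70 ± 0.46, adjusted p = 0.0183). Both calls were lost in at least 2 of the 4 fits that left out a library. Between TAC and Mx, where 1.04% of all genes were called higher and 0.233% lower (1.27% together), the single member called was Hoxa5, a gene needed for lung development. It had 1.78 and 0.470 FPKM in TAC and 4.51 and 6.46 FPKM in Mx (-1.66 ± 0.38, adjusted p = 0.03), and 3 of the 4 fits that left out a library lost it.

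HF-SC was set against HF-ORS, where 2.66% of all genes were called higher and 1.73% lower (4.4% together). Besides Hoxc13, Hoxc8 rose, with 23.0 and 28.9 FPKM in HF-SC and 4.05 and 13 FPKM in HF-ORS (log2 change 1.67 ± 0.40, adjusted p = 0.0186). Hoxd8 rose as well, with 5.19 and 1.27 FPKM in HF-SC, against 0 and 0.382 FPKM in HF-ORS (adjusted p = 0.0395). Hoxc4 fell, with 4.98 and 0.928 FPKM in HF-SC and 12.5 and 9.21 FPKM in HF-ORS (-1.79 ± 0.42, adjusted p = 0.0146). For each of these 4 genes the 2 HF-SC libraries lay on one side of the 2 HF-ORS libraries. Each call was lost in at least 2 of the 4 fits that left out a library. All 4 had the same direction between ORS and Epi, in another mouse line, where Hoxc8 did not pass (log2 change 1.13, adjusted p = 0.0856).

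DP was set against DF to ask whether the papilla differs from the surrounding fibroblasts. Apart from Hoxc13, the single member called was Hoxc8, at 99.4 and 114 FPKM in DP and 31.8 and 49.4 FPKM in DF (log2 change 1.40 ± 0.40, adjusted p = 0.0376). Of all genes, 2.44% were called higher and 4.25% lower (6.69% together). The Hoxc8 call was lost without DF replicate 1 (adjusted p = 0.317), DP replicate 1 (0.124) or DP replicate 2 (0.163), and with a pseudocount of 0.1 (0.0862). Members called higher numbered 3 with a pseudocount of 5, 2 with quantile normalization and 0 with no filter on low values. Members called lower in DP numbered 3 without DF replicate 2 and 2 without DP replicate 1. Hoxc4, Hoxc5 and Hoxc6 had log2 changes of 1.27, 1.21 and 1.18, in each case with both DP libraries above both DF libraries, but did not pass (adjusted p = 0.075, 0.0738 and 0.293). Hoxc10 (0.47 ± 0.50) and Hoxc9 (0.45 ± 0.53) changed less than their error. DF also held melanocyte and pericyte markers, the last summing to 603 and 601 FPKM over 5 genes, against 57.0 and 58.8 FPKM in DP, and their part in the lower HoxC values of DF was not tested.

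Between the papilla types no member passed the test. For G/AA-DP against ZZ-DP none reached an unadjusted p of 0.05 either, and 1 of all genes tested was called (0.00664%). Here the Sox2 levels of replicate 1 went against the gate in both sorts. The absence of calls therefore does not show that these papilla types are alike. For G-DP against AA/ZZ-DP, where 0.412% of all genes were called higher and 0.093% lower (0.505% together), 4 members had an unadjusted p under 0.05. They were Hoxa10 (3.70 and 1.03 FPKM in G-DP, 11.6 and 7.74 in AA/ZZ-DP), Hoxc8 (45.2 and 35.8 in G-DP, 88.0 and 116 in AA/ZZ-DP), Hoxa3 (4.60 and 0.429 in G-DP, 9.55 and 6.44 in AA/ZZ-DP) and Hoxc9 (5.56 and 11.1 in G-DP, 19.3 and 18.2 in AA/ZZ-DP). Without G-DP replicate 1, 2 members were called lower. All 4 had both G-DP libraries below both AA/ZZ-DP libraries, and their adjusted p lay between 0.2 and 0.559. Melanocyte markers were higher in the same G-DP libraries (992 and 869 FPKM, against 47.1 and 61.0 FPKM in AA/ZZ-DP), and their part was not tested. Hoxa6 was highest in G-DP replicate 2, at 39.5 FPKM, with 14.1 FPKM in replicate 1.

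Melanocytes arise from the neural crest, and Mc had the lowest summed Hox level of the 14 populations. It was 4.92 and 7.28 FPKM in the 2 Mc libraries, against 358 and 257 FPKM in DF. Set against DF, 23 of 29 members fell in Mc and none rose, while 6.67% of all genes were called higher and 11.5% lower (18.2% together). Set against the mean of TAC, Mx, ORS and Epi, 20 fell and none rose, with 11.7% of all genes called higher and 11.8% lower (23.5% together). The median log2 change was -2.26 over the members and 0.02 over all genes in the first comparison, and -1.89 and -0.05 in the second. Both comparisons use the same Mc libraries. With a pseudocount of 5, 1695 of all genes were called in the first comparison and 2018 in the second. The count of 23 was 15 without DF replicate 1 and 11 with a pseudocount of 5, and the count of 20 was 12 with that pseudocount.

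Hoxb3, at 1.5 and 1.13 FPKM, and Hoxc13, at 1.16 and 2.83 FPKM, were the 2 members detected in Mc. Hoxc8 had 0.172 and 0.462 FPKM in Mc and 31.8 and 49.4 FPKM in DF (log2 change -4.96 ± 0.40, adjusted p = 2.26e-08). Hoxc6 had 0.179 FPKM in Mc replicate 1 and was listed at 0 in replicate 2, against 34.1 and 33.9 FPKM in DF (adjusted p = 2.96e-06). Hoxc4, Hoxc5, Hoxc10, Hoxa5, Hoxa9, Hoxa10, Hoxb6, Hoxd3 and Hoxd9 were listed at 0 in both Mc libraries and were called lower than in DF. Of these, Hoxb6 differed between DF replicates 1 and 2 (10.8 and 1.04 FPKM). Its log2 change of -2.29 was -1.03 without DF replicate 1. Neg had 19 members detected and was the only population with Hoxd10 above 0.5 FPKM in both libraries (0.902 and 2.00). It also had the highest sums of endothelial markers, at 99.3 and 155 FPKM over 5 genes.

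TALE homeodomain proteins bind DNA next to Hox proteins. Of 7 of their genes tested, 3 rose in the dermal populations and none fell: Meis3 (log2 change 4.06), Meis1 (3.38) and Meis2 (2.93). Over all genes, 15.1% were called higher and 12.9% lower there. Meis1 ranged from 25.7 FPKM in DF replicate 1 to 76.7 FPKM in AA/ZZ-DP replicate 1 among dermal libraries and from 2.64 FPKM in Mx replicate 1 to 8.63 FPKM in ORS replicate 2 among epithelial ones, without overlap. Pbx2, Pbx3, Pknox1 and Pknox2 did not pass. Between DP and DF, Meis1 alone of these rose (1.40).

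Polycomb proteins keep Hox genes silent outside their domains and trithorax proteins keep them active. Of 16 Polycomb genes tested, Phc1 (1.63) and Phc3 (1.26) rose in the dermal populations and Cbx2 (-1.32) fell, a count of 3 called where 28.0% of all genes were. The median log2 change over the 16 was -0.055. Ezh2, Eed and Suz12, the core of the methylating complex, had log2 changes of -0.88, -0.94 and -0.65, which passed the adjusted p but not the fold. None of 8 trithorax and other activator genes tested was called. Of 9 genes tested that flank the clusters, Skap2 beside HoxA (-3.44) and Hnrnpa1 beside HoxC (-1.16) fell in the dermal populations and none rose, where 12.9% of all genes fell.

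Sequence before the RefSeq start was at hand for 22 of the 39 members, in 24 windows. It is shown for 3 of them that changed between compartments, Hoxa10 and Hoxd9, which rose in the dermis, and Hoxb8, which fell. Each line gives 250 bases before the start on the strand of the gene, with capitals on every CG pair, from GRCm38.p6 at chr6:52240855-52241104 on the minus strand for Hoxa10 (the start farther from the gene body), chr2:74697513-74697762 on the plus strand for Hoxd9 and chr11:96281655-96281904 on the plus strand for Hoxb8.
Hoxa10: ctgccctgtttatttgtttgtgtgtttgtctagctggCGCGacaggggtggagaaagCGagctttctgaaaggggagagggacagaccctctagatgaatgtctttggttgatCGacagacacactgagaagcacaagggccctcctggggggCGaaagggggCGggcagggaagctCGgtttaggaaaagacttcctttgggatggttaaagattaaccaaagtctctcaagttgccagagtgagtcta
Hoxd9: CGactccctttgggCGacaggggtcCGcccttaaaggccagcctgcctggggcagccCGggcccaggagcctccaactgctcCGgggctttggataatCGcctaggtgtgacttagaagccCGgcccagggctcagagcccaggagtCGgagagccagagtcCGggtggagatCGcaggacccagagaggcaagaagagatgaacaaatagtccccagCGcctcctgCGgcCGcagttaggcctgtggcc
Hoxb8: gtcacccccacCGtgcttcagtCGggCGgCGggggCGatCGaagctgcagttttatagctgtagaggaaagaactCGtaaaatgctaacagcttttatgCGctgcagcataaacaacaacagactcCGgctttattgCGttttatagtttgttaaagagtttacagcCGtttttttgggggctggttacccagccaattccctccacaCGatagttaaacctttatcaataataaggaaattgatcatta
The Hoxa10 window shown held 7 CG pairs and the window at its other start 20, the Hoxd9 window 13 and the Hoxb8 window 12. The median was 12.5 over the 24 Hox windows, which ranged from 2 to 35, and 6.0 over all 32851 windows of that length. The letters TGATNNAT, read on both strands, a pattern bound by Hox and Pbx proteins together, were found in the Hoxb8 window and in 4 of the 24 Hox windows in all, against 7.68% of all windows.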

How the data were processed

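RNA was sequenced from 28 libraries. Per the labels' protocols, cDNA was amplified from 6 ng of RNA with an integrity number of 8.8 or more, and 100.0 ng of it went into each library. The authors deposited 1 table of FPKM. Cufflinks 2.1.1, Bowtie2, TopHat2 2.0.3 and build mm10 are named in the submitters' processing notes. The sources used here do not give the annotation, strand setting or filters, and depth is unknown. Of 23235 rows, 220 were identical to another and were dropped. Of those kept, 170 joined several gene names. No other sample column was present (0 unused).

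The 15052 rows that reached 1 FPKM in 2 or more libraries were fitted as log2(FPKM + 1) with limma 3.58.1 in R 4.3.3. The fit used all 28 libraries, 1 mean per population, no other term and a trended empirical Bayes variance (14 residual and 5.7 prior degrees of freedom). Two-sided p-values were adjusted over all rows within each of 10 comparisons (Benjamini-Hochberg). A call needed a log2 change of 1 or more either way with an adjusted p below 0.05. The fit was tested on simulated data. Alternatives were other pseudocounts (0.1 and 5), filters (none and 5 FPKM) and scaling, a replicate block, each library left out, and other weights and lines for the dermal comparison. Groups came from the sample labels. Every Hox member was accounted for, with values by library, a range over libraries, a log2 change or a listing as not tested. The members, the lists of cofactor, chromatin, flanking and marker genes and the comparisons were chosen with earlier results of these data known. A Hox gene, included in the counts and sums of members, and a cofactor gene, left out of its list, are not reported here.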

Additional observations from a re-analysis of the deposited data

How the results depend on the processing

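With a pseudocount of 5, members called were 7 higher and 1 lower in dermal against epithelial populations, 3 higher in DP against DF, 0 lower in Mx against ORS, 1 higher and 0 lower in TAC against Mx, 1 higher and 0 lower in ORS against Epi, 11 lower in Mc against DF, 12 lower in Mc against the epithelium and 1 higher in HF-SC against HF-ORS. With 0.1 they were 0 higher in DP against DF, 2 lower in Mx against ORS and 0 lower in ORS against Epi. With no filter they were 0 higher in DP against DF and 0 lower in Mx against ORS. With a filter at 5 FPKM they were 2 lower in Mx against ORS and 1 higher in TAC against Mx. With quantile normalization they were 2 higher in DP against DF, 1 higher and 0 lower in Mx against ORS and 1 higher in ORS against Epi. The causes were not tested.

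With a replicate block, numbered within each mouse line, members called were 3 higher in DP against DF, 3 lower in Mx against ORS, 1 higher in TAC against Mx and 2 lower in ORS against Epi, and other counts stayed within 1.5 times. In these comparisons, in the same order, 1421, 859, 336 and 1826 of all genes were called with the block. Without it the numbers were 1007, 577, 191 and 1480. Same-numbered libraries deviated together at correlations of 0.057 to 0.275 for K14-H2BGFP (28 pairs, 27 of them over 0.1), 0.285 in Sox2-GFP, 0.283 in Crabp1-GFP and 0.071 in K14-RFP Sox9-GFP, and since not every pair was over 0.1 and no label ties the numbers, the samples were treated as sharing only a number.

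With 1 library left out, dermal against epithelial calls numbered 11 to 11 higher and 4 to 6 lower. DP against DF gave 0 to 1 higher and 1 to 3 lower, Mx against ORS 0 to 1 higher and 0 to 0 lower, TAC against Mx 0 to 1 lower, and ORS against Epi 1 to 2 higher and 0 to 1 lower. Mc against DF gave 15 to 19 lower, Mc against the epithelium 18 to 21 lower, G-DP against AA/ZZ-DP 0 to 2 lower, and HF-SC against HF-ORS 0 to 2 higher and 0 to 2 lower. A lone library was then assumed to vary like those of the other populations. No called change turned its direction in any of these settings. Unknown depth and 2 libraries per population limit what single pairs of populations can show.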
